A study of Arabidopsis thaliana with 8 samples.

Results

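A set of 106 probe sets was induced by hypoxia to a similar extent in both genotypes of this experiment, out of 22746 probe sets on the array that are not controls. They were chosen by their own values. The mean log2 difference between hypoxia and air had to be at least 1.5 in Col-0 (called A) and in OE-HRA1 (called B), and A and B had to lie within 0.5 of each other. Each hypoxia array also had to read above both air arrays of its genotype, and the genes that the study marks as core hypoxia genes were left out. Of 285 probe sets with A of at least 1.5, 186 also had B of at least 1.5, 110 met the bound on the difference and 109 had ordered arrays; 3 of these were core genes. The data come from 8 Affymetrix ATH1 arrays of total RNA from whole Arabidopsis seedlings aged 7 d. OE-HRA1 seedlings carry HRA1 with a FLAG tag under the CaMV 35S promoter, which is active in most tissues; lines #1 and #2 gave 1 array each after 2 h of hypoxia under 99.9% argon in dim light and 1 array each after the same time in air. Col-0, the wild-type accession without the transgene, gave 2 arrays per treatment, labelled as replicates 1 and 2. For the 2 hypoxic Col-0 arrays the labels are at odds, since the source field gives air where title, description and treatment give hypoxia; they entered as hypoxia arrays.

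When oxygen runs short, Arabidopsis cells stabilize group VII ERF proteins, which switch on the core hypoxia-responsive genes of fermentation and sugar use, and HRA1 is a trihelix protein that acts against this activation. Hypoxia also sets off an early stress response shared with wounding, pathogens, touch and oxidative stress, in which calcium signals, mitogen-activated protein kinases and mitochondrial signals raise the transcripts of zinc finger, ERF, WRKY and NAC factors. Many transcripts of this second kind are short-lived and rise within minutes to hours.

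The gene under study checked the labels. The HRA1 (AT3G10040) probe set, which also reads the transgene, stood at 12.19 and 12.02 log2 units in hypoxic OE-HRA1, 12.98 and 13.09 in OE-HRA1 in air, 11.74 and 12.10 in hypoxic Col-0 and 7.20 and 7.00 in Col-0 in air. OE-HRA1 was far above Col-0 in air, and the genotypes overlapped under hypoxia. Both arrays of a group correlated at 0.994 to 0.997 over the 22645 probe sets tested. Among 8 root marker genes 4 had an assigned probe set, and their summed linear signal was 631 to 647 in hypoxic OE-HRA1, 1545 to 1971 in OE-HRA1 in air, 422 to 551 in hypoxic Col-0 and 1198 to 1205 in Col-0 in air. The 4 genes were COBL9, EXPA7, EXPA18 and RHS19. Limma, at an adjusted p under 0.01 and an absolute log2 difference above 1, called 3 of them lower under hypoxia in each genotype. The sum thus moved with the treatment and does not measure the share of root tissue. OE-HRA1 had the higher sum in both treatments, and the part of root share in the genotype differences given here was not tested. Shoot markers had no assigned probe set, so the shoot part of the seedlings was not checked. In bulk RNA, fewer cells of a type and less RNA per cell cannot be told apart.

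A single gene could be assigned to 98 of the 106 members, to 56 of them by the platform annotation (55 with a current RefSeq entry). For 42 it came only from the study's list of genes that changed in any of its comparisons. The authors drew up that list from these arrays together with arrays of rosettes that overexpress HA-tagged RAP2.12. Genes named through that list are preselected for a response to hypoxia or a difference between genotypes, which bears on every count over role lists given here. The 8 unassigned members include 4 probe sets that can read several genes. Lists of genes with a known role were searched, 18 in number. Of the 98 genes, 52 are on 1 of these lists, and the other 54 members are on none of them. The clock and light list and the jasmonate list hold no member. The lists hold 221 genes, of which 136 had an assigned probe set, and 51 of these were named by the platform. Of the 51, 17 are members. In each count by list, measured means with an assigned probe set, so listed genes without one are left out. The platform named 3 of the 10 WRKY genes so measured, 1 of the 8 group IX ERF genes and 0 of the 7 NAC genes. A gene is described as induced more in OE-HRA1 where B was at least 1.5 and B minus A at least 0.5, and as induced less where A was at least 1.5 and B minus A at most -0.5, both without a test.

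The members covered a wide range of induction. A ran from 1.51 to 4.77, with a median of 2.06, or 4.16-fold, and B from 1.52 to 5.08, with a median of 2.08, or 4.22-fold. The mean of A and B was under 2 for 50 members, from 2 to under 3 for 36, from 3 to under 4 for 15 and at least 4 for 5. These values chose the members and are given as a description. Limma, at an adjusted p under 0.01 and an absolute log2 difference above 1, called 103 members higher under hypoxia in OE-HRA1, where 1.96% of all tested probe sets were called higher, and 102 in Col-0, where 2.02% were. The members not called were MBF1C, 262911_s_at and 253060_at in both genotypes and WRKY46 in Col-0. In air the median signal of the members was 7.21 log2 units in OE-HRA1 and 7.04 in Col-0, while over all tested probe sets it was 7.22 in OE-HRA1 and 7.25 in Col-0. Under hypoxia the members' medians were 9.76 in OE-HRA1 and 9.35 in Col-0.

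**Figure D1:**
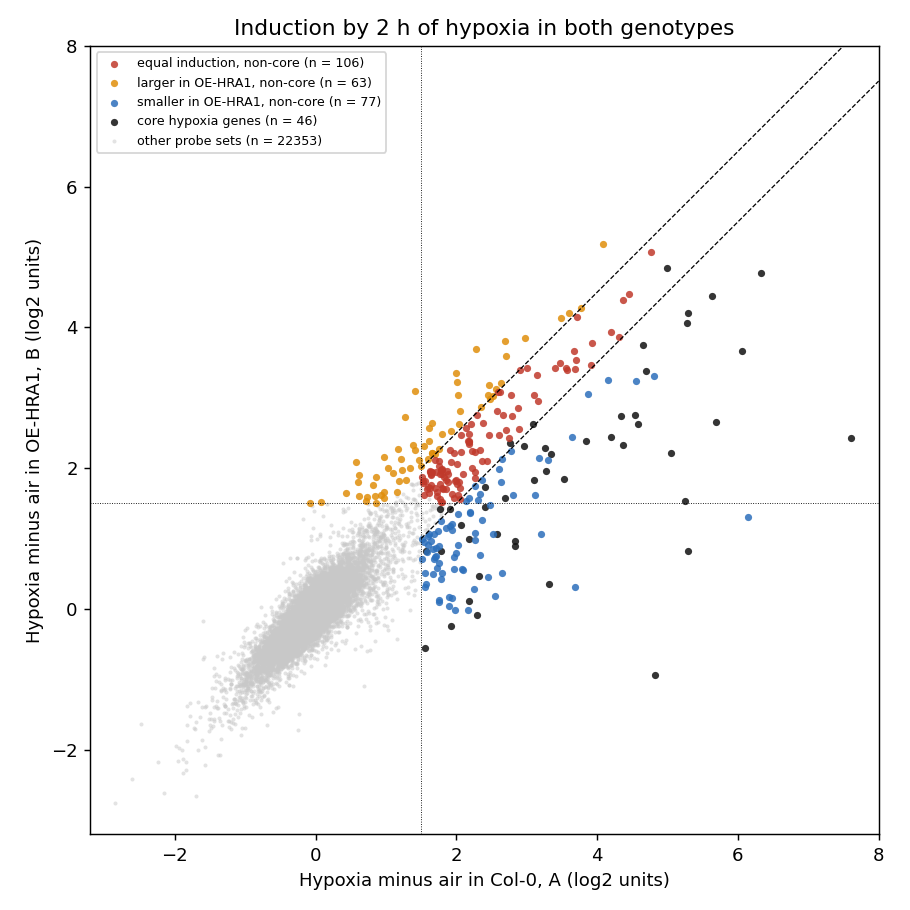
Hypoxia minus air in OE-HRA1 (B, y axis) against the same difference in Col-0 (A, x axis), both in log2 units, for all 22645 tested probe sets. The dotted lines mark 1.5, the dashed lines a difference of 0.5 between B and A, and the 106 members (red) lie between the dashed lines up to an A of 4.77, while the 46 probe sets of core genes (black) mostly lie below them.

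The thresholds cut through a continuous cloud. Just inside the bound on A were AT4G28290 (1.51), the VQ-motif gene AT3G56880 (1.52) and MBF1C (1.52), and just outside it AT1G65870 (1.498), the unassigned probe set 248851_s_at (1.49) and MGD2 (1.47), a galactolipid synthase gene. For B, the NAC gene TIP (1.52), the kelch-repeat F-box gene AT1G80440 (1.52) and RAV1 (1.56) lay just inside, and HSFA8 (1.49), AT5G51390 (1.48) and AT1G68670 (1.465) just outside. For the absolute difference of B and A, NAC036 (0.49), ERF4 (0.49) and the mitochondrial AAA-ATPase gene OM66 (0.48) lay just inside, and AT4G27280 (0.503), AT5G10695 (0.505) and AT3G10930 (0.51) just outside.

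Zinc finger factors of the ZAT and AZF group are repressors of the early stress response, and 4 of the 7 measured were members. ZAT12 (annotated as RHL41, AT5G59820), a factor of oxidative and light stress, read 11.02 and 11.17 in hypoxic OE-HRA1 and 6.98 and 7.35 in OE-HRA1 in air, against 10.77 and 11.14 in hypoxic Col-0 and 6.52 and 6.99 in Col-0 in air. The arrays of the genotypes overlapped in both treatments, while the treatments were 15.3-fold apart in OE-HRA1 and 18.4-fold apart in Col-0. ZAT10 (STZ, AT1G27730), a salt and drought factor, read 10.45 and 10.56 in hypoxic OE-HRA1 and 7.03 and 6.98 in OE-HRA1 in air, against 10.01 and 9.99 in hypoxic Col-0 and 6.57 and 6.49 in Col-0 in air. Here every OE-HRA1 array stood above every Col-0 array of its treatment. ZAT6, linked to phosphate and metal responses, had inductions of 3.03 in OE-HRA1 and 3.10 in Col-0, and AZF2, an abscisic acid responsive repressor, of 2.48 and 2.18. ZAT11 was induced more in OE-HRA1 (1.90 against 0.62 in Col-0), and ZAT5 and ZAT18 were not called in either genotype. Of the tandem CCCH zinc finger genes, which code for RNA-binding regulators, SZF1 (B of 2.96, A of 3.16) and SZF2 (annotated as CZF1; B of 2.01, A of 2.22) were members out of 5 measured, and the other 3 were not called higher in OE-HRA1.

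Group IX ERF genes code for ethylene response factors that act in growth arrest and defence, unlike the group VII factors of oxygen sensing, and 4 of 8 measured were members. ERF105 (AT5G51190) read 9.78 and 9.85 in hypoxic OE-HRA1 and 6.06 and 6.03 in OE-HRA1 in air, against 10.13 and 9.81 in hypoxic Col-0 and 6.01 and 6.09 in Col-0 in air. The arrays of the genotypes overlapped in both treatments. ERF6 (AT4G17490) read 10.38 and 10.34 in hypoxic OE-HRA1 and 7.41 and 7.61 in OE-HRA1 in air, against 9.71 and 9.58 in hypoxic Col-0 and 6.87 and 6.66 in Col-0 in air. ERF5 (AT5G47230), its close relative, read 9.91 and 10.17 in hypoxic OE-HRA1 and 7.18 and 7.37 in OE-HRA1 in air, against 9.10 and 9.17 in hypoxic Col-0 and 6.44 and 6.50 in Col-0 in air. For both genes the groups did not overlap between genotypes, and the whole range lay higher in OE-HRA1. ERF104, a substrate of the kinase MPK6, had inductions of 1.80 in OE-HRA1 and 2.04 in Col-0. Of the others measured, ERF13 was induced more in OE-HRA1 (2.81 against 2.05 in Col-0) and ERF2 was called higher in both genotypes but had a B of 1.41.

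WRKY factors regulate defence, and 5 of 10 measured were members. WRKY70 (AT3G56400), which acts in salicylic acid signalling, read 11.41 and 11.58 in hypoxic OE-HRA1 and 8.15 and 8.03 in OE-HRA1 in air, against 10.68 and 11.15 in hypoxic Col-0 and 7.19 and 7.27 in Col-0 in air. All OE-HRA1 arrays were above the Col-0 arrays of their treatment. WRKY33, needed for resistance to necrotrophic fungi, had inductions of 3.39 in OE-HRA1 and 3.57 in Col-0, WRKY18 of 2.22 and 1.96, and WRKY6 of 1.78 and 2.01. WRKY46 read 8.86 and 8.44 in hypoxic OE-HRA1 and 6.28 and 6.08 in OE-HRA1 in air, against 7.13 and 8.94 in hypoxic Col-0 and 6.002 and 5.93 in Col-0 in air. The hypoxic Col-0 arrays of WRKY46 differed from each other by more than 1, so its place among the members rests on the mean of unlike arrays. WRKY22 was not a member, with a B of 1.62 and an A of 3.12. Of 7 measured NAC genes, ATAF1 (B of 1.72, A of 1.70), TIP, also called ANAC091 (1.52 and 1.78), and NAC036 (3.09 and 2.60) were members, and 2 others, ANAC102 and ANAC062, were called higher in both genotypes with inductions under 1.5.

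Several signalling genes of the same early response were members. The list of calcium sensors and calcium-dependent proteins had 5 members of 17 measured. TCH3, a calmodulin-like touch gene, read 13.30 and 13.40 in hypoxic OE-HRA1 and 11.30 and 11.46 in OE-HRA1 in air, against 13.12 and 13.32 in hypoxic Col-0 and 11.71 and 11.14 in Col-0 in air, with overlap between the genotypes in both treatments. The calmodulin-binding genes IQM1 (annotated as EDA39) and AT2G26190 had B of 2.07 and 2.23 and A of 2.00 and 2.06, the C2-domain gene AT4G34150 had 2.35 and 2.18, and the calmodulin-like gene AT3G25600 had 1.77 and 1.64. In the same list 4 genes were induced more in OE-HRA1, among them CBP60G (2.00 against 1.03 in Col-0) and BAP1 (2.28 against 1.17 in Col-0), both genes of defence regulation. Of 7 measured kinase genes, MKK9, an activator of ethylene synthesis (B of 1.82, A of 1.98), and S6K2, a kinase downstream of TOR (2.82 and 2.58), were members. VQ-motif proteins, which bind WRKY factors, had 3 members of 5 measured, led by AT2G22880 (3.43 and 3.56).

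Ubiquitin ligases were well covered by the platform, which names 12 of the 16 measured RING and U-box genes, and 5 of the 16 were members. ATL31 (annotated as CNI1, AT5G27420), a ligase of the carbon and nitrogen balance, read 10.31 and 10.54 in hypoxic OE-HRA1 and 6.80 and 6.97 in OE-HRA1 in air, against 9.58 and 9.64 in hypoxic Col-0 and 6.10 and 5.70 in Col-0 in air. Its OE-HRA1 arrays stood above the Col-0 arrays throughout. ATL2, a rapidly induced defence gene, had inductions of 1.62 in OE-HRA1 and 1.54 in Col-0, RING1 of 1.87 and 1.83, PUB23, which dampens immune responses, of 1.94 and 1.62, and AT1G26800 of 1.63 and 1.94. Another 6 genes of this list were called higher in both genotypes outside the bounds, and 1 was induced less in OE-HRA1. Of 3 measured kelch-repeat F-box genes, which act in cytokinin signalling and phenylpropanoid turnover, AT1G80440 was a member.

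**Figure D2:**
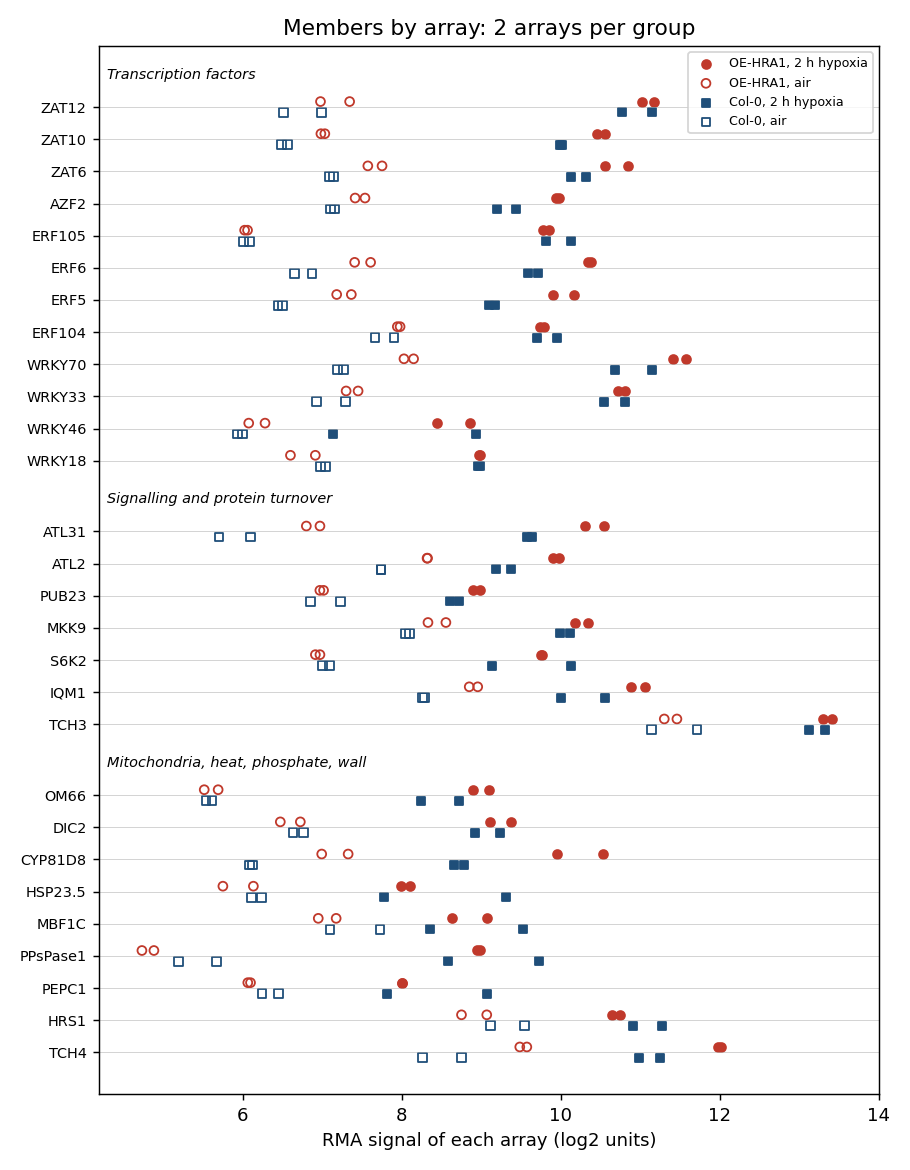
RMA signal of each array in log2 units for 28 members, grouped by role, with OE-HRA1 as circles above Col-0 as squares and hypoxia filled, air open. ERF105 and TCH3 overlap between genotypes, while ERF5, ERF6, ATL31 and CYP81D8 lie higher in OE-HRA1 in both treatments. WRKY46, HSP23.5, MBF1C, PEPC1 and PPsPase1 have hypoxic Col-0 arrays more than 1 log2 unit apart.

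Genes for TIR-domain proteins, parts of intracellular immune receptors, made up a run of neighbouring members on chromosome 1. AT1G72920 read 9.49 and 9.45 in hypoxic OE-HRA1 and 4.89 and 5.09 in OE-HRA1 in air, against 9.41 and 9.35 in hypoxic Col-0 and 4.98 and 4.87 in Col-0 in air. Its induction of 22.3-fold in OE-HRA1 and 22.0-fold in Col-0 was the next largest among the members after that of AT5G20790, and the arrays of a treatment lay close together. In gene order it stands beside AT1G72900 (B of 2.47, A of 2.47), AT1G72890 (1.61 and 1.72) and the probe set 262374_s_at, which reads AT1G72910 and AT1G72930 (1.70 and 1.81), all members. AT1G72940, next in order, is a core gene with 2.63 and 3.09. On either side induction ended, with 0.21 and 0.40 for AT1G72950 and -0.07 and 0.03 for AT1G72870. Another neighbouring pair was AT1G76590 (1.70 and 1.58), which codes for a zinc-binding PLATZ protein, and AT1G76600 (3.87 and 4.31), so that 5 of 98 placed member genes (5.10%) had another member next to them or 1 gene away. The corresponding share was 3.64% of 55 genes induced more in OE-HRA1 and 0 of 69 genes induced less, counted without the probe sets that read several genes. These classes are smaller than the members, which by itself lowers such a share, and no share over all tested genes was computed. The member share rests on the TIR run and this pair alone. Elsewhere in the genome the receptor gene RPS6 (AT5G46470; 1.82 and 1.55) was also a member. Of the 8 measured genes of the TIR list 4 were members, and 7 were called higher in both genotypes. AT1G66090 was induced more in OE-HRA1 (3.05 against 2.45 in Col-0), and AT3G04210, with a B of 1.77 and an A of 1.39, missed the bound on A.

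Mitochondrial stress genes, whose transcripts report on impaired respiration, had 4 members of 11 measured, while 4 others were induced more in OE-HRA1. OM66 (annotated as BCS1), a protein of the outer mitochondrial membrane, read 8.90 and 9.09 in hypoxic OE-HRA1 and 5.69 and 5.52 in OE-HRA1 in air, against 8.25 and 8.72 in hypoxic Col-0 and 5.54 and 5.61 in Col-0 in air. It lay at the edge of the bound, with OE-HRA1 above Col-0 under hypoxia only. DIC2, a dicarboxylate carrier gene, had inductions of 2.65 in OE-HRA1 and 2.38 in Col-0, HSP23.5 (AT5G51440), a small heat shock protein of mitochondria, of 2.10 and 2.37, and the cytochrome P450 gene CYP81D8 of 3.08 and 2.62. AOX1A, the alternative oxidase gene and the classic marker of this response, was not a member, with 1.76 in OE-HRA1 and 0.81 in Col-0. From the heat stress list, HSFB2A (1.73 and 1.79), MBF1C (1.79 and 1.52) and the class III small heat shock gene AT1G54050 (1.97 and 1.63) were members of 6 measured.

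Phosphate status genes are raised by phosphate starvation, and 3 of 11 measured were members. PPsPase1 (annotated as PS2, AT1G73010), a pyrophosphatase gene, read 8.98 and 8.95 in hypoxic OE-HRA1 and 4.89 and 4.73 in OE-HRA1 in air, against 8.59 and 9.73 in hypoxic Col-0 and 5.20 and 5.67 in Col-0 in air. The hypoxic Col-0 arrays lay on both sides of the OE-HRA1 arrays, and both OE-HRA1 air arrays lay below Col-0. The phosphatase gene PEPC1 had inductions of 1.92 in OE-HRA1 and 2.10 in Col-0, and HRS1, a repressor of phosphate-dependent root growth, of 1.78 and 1.77. The list as a whole was not even, since SPX1 and GDPD1 were induced more in OE-HRA1 and MGD3 and SPX3 less. TCH4, a touch-induced cell wall enzyme gene, was the 1 member of 4 touch genes. In the indole glucosinolate and detoxification list, CYP81F2 (3.33 and 3.14), MYB51 (1.83 and 1.85) and the glycosyltransferase gene AT2G36970 (1.98 and 1.78) were members of 4 measured. None of the 6 measured clock and light genes was a member; 3 of these 6 were called higher in each genotype, with B below 1.5.

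Outside the lists, the largest induction of all members belonged to AT5G20790, a gene without a known role. It read 11.29 and 11.02 in hypoxic OE-HRA1 and 6.08 and 6.08 in OE-HRA1 in air, against 11.31 and 11.71 in hypoxic Col-0 and 6.32 and 7.17 in Col-0 in air. The difference was 33.8-fold in OE-HRA1 and 27.3-fold in Col-0. Others among the 10 largest were the unassigned probe set 261892_at (4.39 and 4.37), AT1G76600, HSPRO2 (3.47 and 3.91), a gene of basal resistance that responds to energy status, and the glutamine amidotransferase gene GAT1_2.1 (3.66 and 3.67). Over all lists, 95 of the 136 measured genes were called higher under hypoxia in both genotypes. Among all tested probe sets 1.96% were called higher in OE-HRA1 and 2.02% in Col-0, and the share called in both was not computed. The 136 are not an unselected set, since 85 of them were named only through the study's list of changed genes. The lists were also chosen with earlier results of these data known, so a high count was to be found. Of the 136, 52 were members, 16 were induced more in OE-HRA1, 8 less, and 1 was a core gene.

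**Figure D3:**
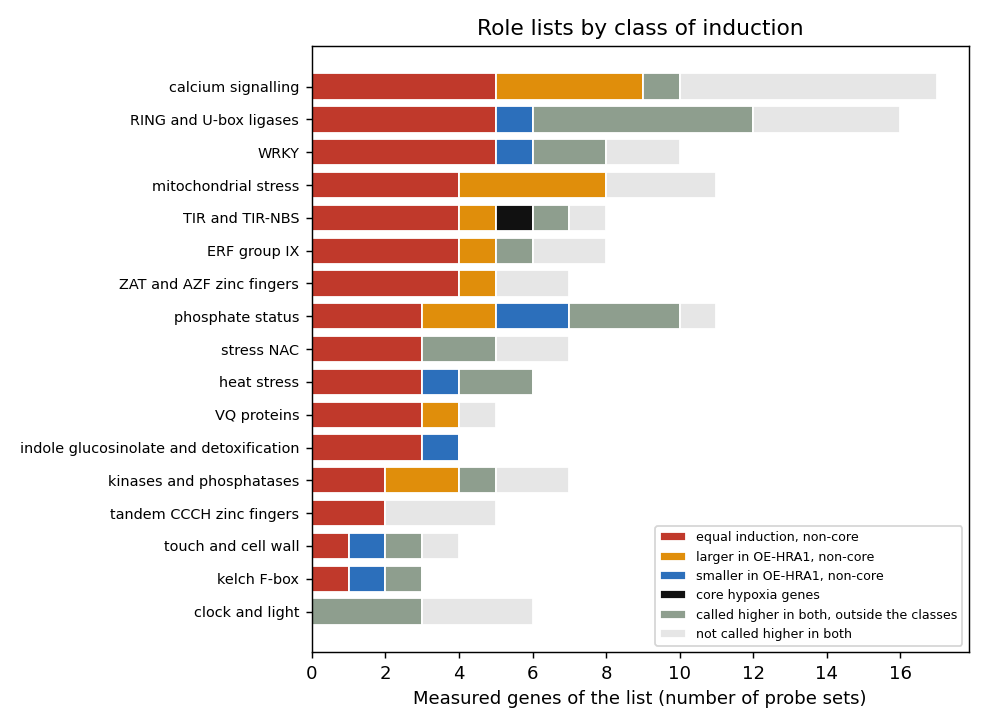
Number of measured genes of each role list (x axis) by class of hypoxia induction, for the 17 lists with more than 1 measured gene. Members (red) were most frequent in absolute number among calcium, RING and U-box and WRKY genes, with 5 each, and were absent from the clock and light list.

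Equal induction left the level of the transcripts free to differ between genotypes, and this difference was not used to choose the members. It was measured as the genotype average, the mean of the signal log2 ratios (SLR) of OE-HRA1 over Col-0 in hypoxia and in air. The genotype average of the 106 members had a median of 0.18 (quartiles -0.01 and 0.46), against 0.02 over all tested probe sets (quartiles -0.09 and 0.11). It was above 0 for 77 members, or 72.6%, where 55.9% of all tested probe sets were above 0. By limma, at an adjusted p under 0.01 and an |SLR| above 1 as in the published methods, 2 members were called higher in OE-HRA1 (0.225% of all tested were called higher) and 0 lower (0.371% of all). At an unadjusted p under 0.05, in either direction, there were 55 members, where 29.1% of all tested probe sets passed. With an adjusted p under 0.05 and no minimum SLR, a rule chosen after the results were seen, 33 members were higher, or 31.1%, where 5.41% of all tested probe sets were higher, and 4 were lower, or 3.77%, where 7.63% of all were lower. Both counts moved with single arrays. Without hypoxic Col-0 replicate 1, 33 members were higher and 10 lower, or 9.43%, where 9.54% of all were lower, so the smaller share of lower members was not seen in that fit. Without either OE-HRA1 hypoxia array 2 were lower. The higher members numbered 22 without the hypoxia array of line #2 and 21 without its air array, or 19.8%, where 2.1% of all were higher. The standard error of the average had a median of 0.10 over the members and 0.07 over all tested probe sets. The 4 root markers had averages of 0.31 to 0.55.

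**Figure D4:**
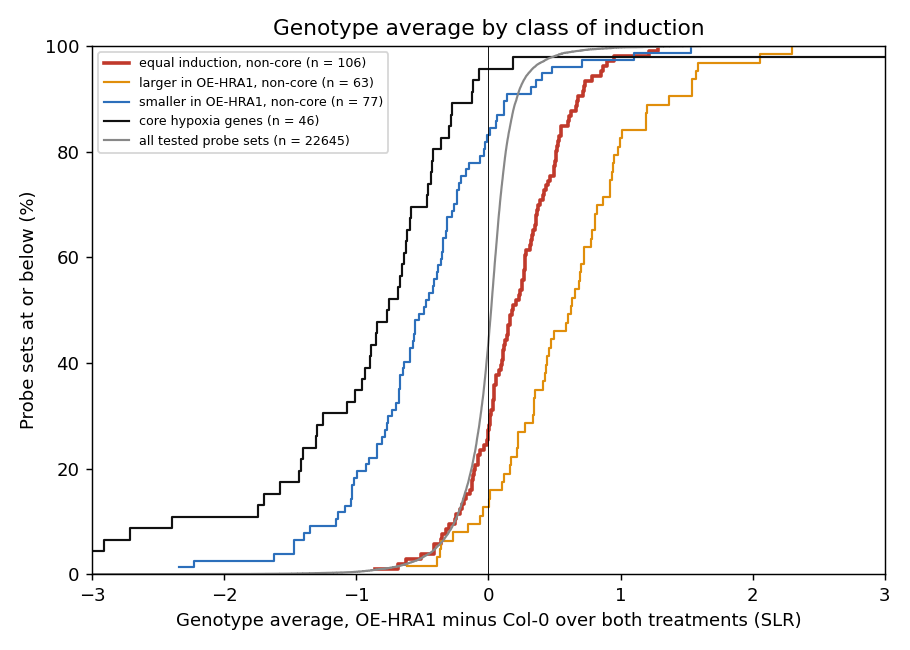
Cumulative percent of probe sets (y axis) by genotype average, the SLR of OE-HRA1 over Col-0 averaged over both treatments (x axis). The curve of the 106 members (red, median 0.18) lies to the right of that of all tested probe sets (grey, median 0.02). Core genes (median -0.76) and non-core genes induced less in OE-HRA1 (median -0.49) lie to the left and those induced more (median 0.63) to the right. No test between the classes was made.

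The genotype average equals the difference in air plus B minus A divided by 2. It also equals the difference under hypoxia less B minus A divided by 2. A bound on B minus A thus does not by itself set its direction. For the other classes the average is given as a description. Its median was -0.76 for the 46 probe sets of core genes, of which 40 were lower and 1 higher at an adjusted p under 0.05 by limma. For the 77 non-core probe sets with A of at least 1.5 and an induction smaller in OE-HRA1 by at least 0.5 the median was -0.49, with 45 lower and 6 higher, and for the 63 with B of at least 1.5 and an induction larger by at least 0.5 it was 0.63, with 37 higher and 2 lower. The median of the members lay between those of the classes induced less and induced more, an order that was not tested. In air the median SLR of OE-HRA1 over Col-0 was 0.15 for the members, 0.17 for probe sets induced more in OE-HRA1, 0.01 for those induced less and -0.09 for core genes. No test between classes was made, since the members and both classes of unequal induction were chosen from the same arrays. The core genes carry the study's mark, based on a published list, within its list of changed genes, without a bound on A or B.

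The members called higher in OE-HRA1 were CYP81D8 and the probe set 265670_s_at. CYP81D8 (AT4G37370) read 9.95 and 10.54 in hypoxic OE-HRA1 and 6.99 and 7.33 in OE-HRA1 in air, against 8.66 and 8.79 in hypoxic Col-0 and 6.13 and 6.08 in Col-0 in air. The OE-HRA1 arrays were higher throughout, with a genotype average of 1.29 (SE 0.13, limma adjusted p = 0.00116), or 2.44-fold. The probe set 265670_s_at, which reads AT2G32190 and AT2G32210, genes without a known role, had 7.69 and 8.77 in hypoxic OE-HRA1 and 6.26 and 6.20 in OE-HRA1 in air, against 6.86 and 6.95 in hypoxic Col-0 and 5.08 and 5.15 in Col-0 in air. Its average was 1.22 (SE 0.20, adjusted p = 0.00737 by limma), and its hypoxic OE-HRA1 arrays differed by over 1 log2 unit. Without the hypoxia array of line #2 the average of 265670_s_at was 0.95 and CYP81D8 was the 1 call left, and without both arrays of line #2, where CYP81D8 averaged 1.06, 0 members were called.

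Below an SLR of 1 the higher members included factors of the early response. TCH4 read 12.02 and 11.97 in hypoxic OE-HRA1 and 9.57 and 9.48 in OE-HRA1 in air, against 11.24 and 10.99 in hypoxic Col-0 and 8.75 and 8.26 in Col-0 in air, a genotype average of 0.95 (SE 0.11, adjusted p = 0.00191 by limma). For ATL31 it was 0.90 (adjusted p = 0.00169), for AT5G19240, which codes for a GPI-anchored protein, 0.87 (adjusted p = 0.0134, but 0.0507 without the air array of line #2), and for ERF5 0.85 (adjusted p = 0.000722), all by limma. ERF6 (0.73), WRKY70 (0.72), IQM1 (0.66; adjusted p = 0.0515 without the hypoxia array of line #2), ATL2 (0.62), ZAT6 (0.51) and ZAT10 and AZF2 (0.49 each) also passed an adjusted p of 0.05. Their neighbours by family did not all do so. By limma the average was -0.08 for ERF105 (adjusted p = 0.545), 0.06 for ERF104 (0.684), 0.27 for ZAT12 (0.223, but 0.0456 with the replicate number as a block), 0.18 for WRKY33 (0.276) and -0.12 for WRKY18 (0.322), and the differences between these genes were not tested.

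Members outside the lists also stood higher in OE-HRA1. NHL3 (AT5G06320), a membrane protein gene of pathogen defence, read 12.62 and 12.64 in hypoxic OE-HRA1 and 10.29 and 10.46 in OE-HRA1 in air, against 11.89 and 11.93 in hypoxic Col-0 and 10.04 and 9.95 in Col-0 in air. Its average was 0.55 (SE 0.06, adjusted p = 0.00169 by limma), and the genotypes did not overlap in either treatment. AT2G28400 (0.79), AT1G76590 (0.72), AT5G48540 (0.68), AT1G19020 (0.67), the chloroplast DnaJ gene J11 (0.61), AT3G46600, a GRAS family gene (0.55), AT1G76600 (0.53) and NUDT7, a nudix hydrolase gene of defence (0.39), also passed an adjusted p of 0.05. By limma, J11 (adjusted p = 0.0211) reached up to 0.0879 with 1 array left out, and NUDT7 (adjusted p = 0.0487) up to 0.156, and 0.0646 with the replicate number as a block. RAV1, a repressor of growth (0.10), SRC2 (0.13), AR781 (0.11) and the stress-induced F-box gene FBS1 (-0.08) did not. Over the role lists, 32 of the 136 measured genes were higher in OE-HRA1 and 8 lower by the same rule, where 5.41% of all tested probe sets were higher and 7.63% lower. Probe sets named only through the list of changed genes were more often called, with 18.5% of 573 higher and 24.6% lower, against 5.1% and 7.06% of the 13421 that the platform names. Of the 51 role genes named by the platform 9 were higher and 2 lower, and of the 85 others 23 and 6. Of the 56 members named by the platform 17 were higher, or 30.4%, and 3 lower. By list, 8 of 17 calcium genes were higher, and 4 each of the 8 group IX ERF genes, the 7 ZAT and AZF genes and the 16 RING and U-box genes; these lists include genes that are not members.

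At an adjusted p under 0.05, 4 members stood lower in OE-HRA1, and 2 to 10 with 1 array left out, the 10 without hypoxic Col-0 replicate 1. AT2G36690, a gene of the 2-oxoglutarate and iron dependent oxygenase family, read 8.43 and 8.26 in hypoxic OE-HRA1 and 6.59 and 6.78 in OE-HRA1 in air, against 9.34 and 9.14 in hypoxic Col-0 and 7.46 and 7.55 in Col-0 in air. Its average was -0.86 (SE 0.08, limma adjusted p = 0.000709), with no overlap between genotypes in either treatment. The others were AT1G65490 (-0.69, adjusted p = 0.0187, but up to 0.0735 without either OE-HRA1 hypoxia array or without Col-0 air replicate 1) and AT2G25735 (-0.62, adjusted p = 0.00319), both without a known role, and TIP (-0.30, adjusted p = 0.0446; up to 0.149 by limma and past 0.05 without any 1 array other than hypoxic Col-0 replicate 1, and 0.0632 with the replicate number as a block). The next by size, AT5G20790 (-0.51, adjusted p = 0.0992) and HRS1 (-0.41, adjusted p = 0.0691), did not pass, although every OE-HRA1 array of both lay below every Col-0 array of its treatment.

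Within a treatment the single comparisons were close to the average, since the bound on B minus A holds them to within 0.25 of it. Under hypoxia, the SLR of OE-HRA1 over Col-0 had a median of 0.21 over the members, and limma called 1 member higher (0.305% of all tested were called higher) and 0 lower (0.627% of all), with 45 at an unadjusted p under 0.05 (24.5% of all). The call was CYP81D8 (1.52, adjusted p = 0.00334). Without the hypoxia array of line #2 it was lost. In air the median was 0.15, and 0 members were called higher (0.0397% of all) or lower (0.0707% of all), with 43 at an unadjusted p under 0.05 (14.6% of all). At an adjusted p under 0.05 with no minimum SLR, 23 members were higher and 3 lower under hypoxia (3.13% and 4.45% of all tested probe sets), and 10 were higher and 1 lower in air (0.521% and 0.76% of all). Counted by single arrays, both OE-HRA1 arrays lay above both Col-0 arrays for 52 members under hypoxia (29.5% of all tested probe sets), for 49 in air (25.4% of all) and for 37, or 34.9%, in both treatments (13.3% of all). Both lay below for 12 members under hypoxia (23.9% of all), for 15 in air (22.9% of all) and for 7 in both treatments (12.7% of all).

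Hypoxia minus air had a median over the members of 2.10 log2 units in line #1 and 2.06 in line #2, and the absolute difference between lines had a median of 0.20. With the Col-0 arrays joined by replicate number, the corresponding medians for replicates 1 and 2 were 1.95 and 2.16, with a median absolute difference of 0.27. Among members the lines differed most at 265670_s_at (1.43 in line #1, 2.56 in line #2), at AT2G20670 (2.50 and 1.71) and at CYP81F2 (2.96 and 3.70). With 1 array per line and treatment these differences have no test.

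Against the Col-0 mean of its treatment, each OE-HRA1 array stood higher over the members. The medians were 0.21 for line #1 and 0.26 for line #2 under hypoxia, and 0.09 for line #1 and 0.21 for line #2 in air. The same medians over all tested probe sets were 0.01, 0.03, 0.01 and 0.01 in the same order. The air array of line #2 read above that of line #1 for 82 of the 106 members, or 77.4%, by a median of 0.14. Over all tested probe sets it did so for 50.4%, by a median of 0.001. The share was 74.0% for non-core probe sets induced less in OE-HRA1, 66.7% for those induced more and 63.0% for core genes. Without both arrays of line #2, 7 members were higher in the genotype average at an adjusted p under 0.05, or 6.60%, against 0.587% of all tested probe sets, and without both arrays of line #1 18 members were, or 17% of the members, against 1.65% of all. The median average was 0.17 without line #2 and 0.23 without line #1.

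**Figure D5:**
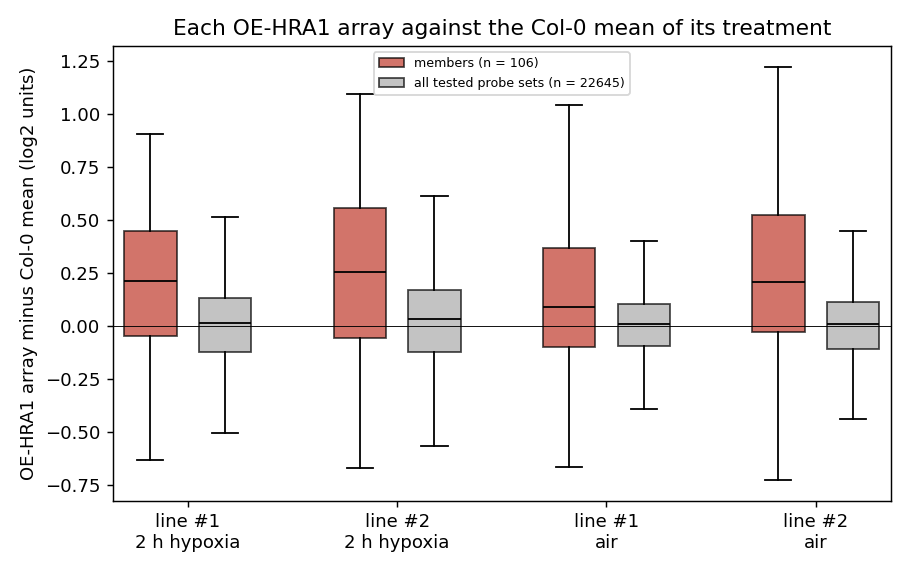
Difference of each OE-HRA1 array from the Col-0 mean of its treatment (y axis, log2 units) for the 106 members (red) and all 22645 tested probe sets (grey), by line and treatment, hypoxia left of air. Boxes span the quartiles with the median as a line, and whiskers reach the farthest value within 1.5 times the box height; the member medians are 0.21, 0.26, 0.09 and 0.21 from left to right.

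The hypoxic Col-0 arrays differed from each other at more members than the arrays of any other group. They lay apart by more than 0.5, the bound set on B minus A, for 22 members, or 20.8%, against 4.61% of all tested probe sets. This was not particular to the members. For the same arrays the share was 27.3% of non-core probe sets induced less in OE-HRA1, 38.1% of those induced more and 6.52% of core genes. In hypoxic OE-HRA1 5 members differed by more than 0.5 (4.72%, against 1.47% of all), in OE-HRA1 in air 3 (2.83%, against 1.38%) and in Col-0 in air 13 (12.3%, against 2.31%). In hypoxic Col-0 replicate 2 was the higher one for 20 of the 22, and over all tested probe sets for 597 of 1044. By more than 1 it was higher at WRKY46, HSP23.5, PEPC1, MBF1C, NAC036, PPsPase1 and 262911_s_at, which reads the small heat shock protein genes AT1G07400 and AT1G59860. HSP23.5 read 7.99 and 8.10 in hypoxic OE-HRA1 and 5.75 and 6.14 in OE-HRA1 in air, against 7.77 and 9.31 in hypoxic Col-0 and 6.24 and 6.11 in Col-0 in air. MBF1C, a co-activator of heat responses, read 9.07 and 8.64 in hypoxic OE-HRA1 and 6.95 and 7.18 in OE-HRA1 in air, against 8.35 and 9.53 in hypoxic Col-0 and 7.10 and 7.73 in Col-0 in air. Replicate 1 was higher by more than 1 at the unassigned probe set 253060_at (7.81 against 5.33). For HSP23.5 and MBF1C the hypoxic OE-HRA1 arrays lay between the 2 Col-0 arrays. Without hypoxic Col-0 replicate 2 the rule found 87 probe sets, 82 of them shared with the 106, and without replicate 1 it found 125, of which 93 were shared.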

How the data were processed

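Total RNA of 8 samples in 4 groups of 2 was measured on ATH1 arrays. According to the methods of the study, the authors used MAS5 for present calls and RMA for normalization, together with arrays of other plants; whether the deposited log2 values come from that run is not stated, and versions are not given in the sources used here. Values were used as deposited. Leaving out 64 controls and 101 probe sets of organelle genes, 22645 remained for testing; the present-call filter was not repeated.

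The model, fitted by limma 3.58.1 under R 4.3.3, had a mean per group and 4 residual degrees of freedom, and p-values were adjusted by Benjamini-Hochberg across the 22645 probe sets. The genotype average is orthogonal to A and B. Same-numbered OE-HRA1 arrays share a line: their deviations from the group means correlated at 0.15, those of the Col-0 numbers at 0.37, and no block was fitted. As nothing beyond the line and the replicate number is labelled per array, p-values measure the spread between these arrays. The model was also run on simulated arrays with independent noise. As these hold no correlation between same-numbered arrays, that run cannot show how such correlation affects the p-values.

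Members, gene lists and tests were chosen with earlier results of these data known. Genes were named if among the 10 largest inductions, the 5 largest genotype averages in each direction, up to 4 members per list, the 3 nearest each threshold or the 3 largest line differences; others were chosen after their values were seen. RefSeq (TAIR10.1) served for names and gene order only. Alternatives were other signal filters, variance priors, normalizations, blocks, thresholds and left-out arrays or lines. Promoter motifs were not analysed here. Columns of the authors' comparisons in the supplementary tables were not used.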

Additional observations from a re-analysis of the deposited data

Results flagged for a closer look

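ERF4, a repressor of the ethylene response, was the 1 member whose genotype difference changed direction with treatment in every array: both OE-HRA1 arrays read below both Col-0 arrays under hypoxia (10.77 and 10.95 against 11.19 and 11.26) and above them in air (9.27 and 9.32 against 9.12 and 9.22). The difference between the inductions, B minus A, was -0.487, just inside the bound. It comes from the values that chose the members and was not tested here. Over all tested probe sets, 1.64% showed this order of arrays.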

How the results depend on the processing

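The median genotype average of the members stayed between 0.13 and 0.23 under the alternatives that gave one, but the counts of calls moved. Of the 2 members called in the genotype average, 1 was called among the top 40% of probe sets by signal, 1 among probe sets with a single named gene and 0 without both arrays of line #2, and 23 without a minimum SLR; leaving out 1 array gave 1 to 2. The 37 members at an adjusted p under 0.05 became 20 without line #1, 9 without line #2 and 24 to 45 with 1 array left out, 24 without the hypoxia or the air array of line #2; by direction these were 21 to 39 higher and 2 to 10 lower. OE-HRA1 against Col-0 in air gave 0 calls, and 2 with an adjusted p under 0.05. Under hypoxia it gave 1, and 2 with an adjusted p under 0.05, 14 without a minimum SLR, 2 without line #1, 0 without line #2, and 0 to 3 with 1 array left out. The 103 hypoxia calls in OE-HRA1 became 46 without line #1 and 50 without line #2. Leaving out a line left 2 residual degrees of freedom and assumed that the lone arrays vary like the other groups. With the replicate number as a block, the pairing of lines and replicates gave 2 calls in the genotype average and 36 members at an adjusted p under 0.05, where 3 members, ZAT12 among them, gained this call and 4, TIP and NUDT7 among them, lost it; it changed no other count by over 1.5 times. The rule found 226 members with A and B of at least 1, 50 with at least 2, 61 with a bound of 0.25 and 280 as limma calls in both genotypes without a called interaction; with 1 array left out it found 87 to 125. The genotype averages of 63 named members were followed through up to 19 alternatives each, and every pair of gene and alternative was counted once. By this count 1112 pairs kept the call, or the lack of one, of the main fit, 47 lost a call and 21 gained one. Changes of sign in averages that were not called were not counted. Of the 37 members at an adjusted p under 0.05, 20 higher and 2 lower ones passed in each fit with 1 array left out and 15 did not, among them TIP, MKK9, AT1G80440, AT1G65490, AT5G19240, IQM1, J11 and NUDT7. Promoter motifs were not run. With 2 arrays per group, small differences between genotypes could not be told from array spread.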
